A study of Mus musculus with 6 samples.

Results

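In prospermatogonia, the male germ cells of the fetal testis, 18 sites were listed as ZBTB43 ChIP–seq peaks when 100K cells (K stands for 1000) were used and the ZBTB43 library was set against an IgG library of the same number of cells. These 18 sites are described here, and they are every peak of that list, of 3588 peaks in the 4 lists used. The ZBTB43 library from 491K cells had 897 peaks against IgG (the 491K/IgG list) and 2043 against input chromatin (491K/input), and the 100K ZBTB43 library had 630 against input (100K/input). All cells were Wild type at 15.5 dpc (days post coitum) and carried the Oct4-EGFP transgene of B6;CBA-Tg(Pou5f1-EGFP)2Mnn/J, by which they were sorted from the testes of pooled fetuses. The IgG control of the 491K library came from 415K cells. Chromatin of the larger sample was crosslinked from combined frozen batches of cells, whereas the sorted cells of the 100K samples were crosslinked before freezing. Each group held 1 library, so no difference between lists had a replicate check and none was tested. The study describes its ChIP–seq as done in biological duplicates. It lists only the 100K and 491K ZBTB43 ChIP libraries, without stating in words that they are those duplicates. Peak lists hold no marker that could check the identity of the sorted cells. How many reads of each library were used for peak calling is unknown here.

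ZBTB43 belongs to a family of nuclear proteins that bind DNA through C2H2 zinc fingers and other proteins through a BTB domain. Long runs in which purines and pyrimidines alternate (PPRs), such as stretches of CA or of CG dinucleotides, can leave the usual right-handed helix for left-handed Z-DNA. In prospermatogonia the genome regains DNA methylation, which in mammals is placed mainly on the cytosine of CpG dinucleotides.

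The reference sequence under the 18 peaks was repetitive at 17 sites and fell into a few recognisable forms. At 8 sites an almost perfect PPR held many CpG. The sequences below, read from the plus strand of the GRCm38 reference (mm10), are shown because they display that form, with CpG in capitals. They are the whole of the Cngb3 (chr4:19490259-19490444) and Mxi1 (chr19:53348947-53349085) sites.
Cngb3: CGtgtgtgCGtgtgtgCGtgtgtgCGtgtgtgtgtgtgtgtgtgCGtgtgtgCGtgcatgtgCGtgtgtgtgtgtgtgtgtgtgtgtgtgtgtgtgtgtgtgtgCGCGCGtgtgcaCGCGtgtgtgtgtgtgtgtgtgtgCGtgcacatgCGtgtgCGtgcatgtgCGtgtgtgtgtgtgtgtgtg
Mxi1: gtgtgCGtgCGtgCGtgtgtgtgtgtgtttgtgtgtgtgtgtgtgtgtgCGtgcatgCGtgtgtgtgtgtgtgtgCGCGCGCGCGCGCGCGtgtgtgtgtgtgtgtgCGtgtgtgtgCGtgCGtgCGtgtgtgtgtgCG

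At another 7 sites a TG or CA repeat held hardly any CpG and was broken at short intervals by GAG (CTC on the opposite strand), which puts purine beside purine. The Hhat (chr1:192670983-192671146) and Pcdh7 (chr5:57759507-57759655) sites are shown to make that interruption visible, with GAG in capitals.
Hhat: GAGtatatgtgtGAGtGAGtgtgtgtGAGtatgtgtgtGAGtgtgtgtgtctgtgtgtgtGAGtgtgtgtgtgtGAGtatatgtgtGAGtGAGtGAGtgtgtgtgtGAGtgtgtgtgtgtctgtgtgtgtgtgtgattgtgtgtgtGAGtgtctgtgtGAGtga
Pcdh7: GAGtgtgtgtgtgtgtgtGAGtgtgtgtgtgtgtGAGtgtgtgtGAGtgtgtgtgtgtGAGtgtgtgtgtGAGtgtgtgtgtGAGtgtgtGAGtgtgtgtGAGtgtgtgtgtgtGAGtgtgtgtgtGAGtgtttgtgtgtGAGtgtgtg

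The remaining 3 sites differed from both forms and from each other. The first 160 bases of the Gpr160 site (chr3:30884247-30884406) were a TG repeat with scattered CpG, capitalised here. The Serpinb1b site was a CA repeat with other interruptions, and the site near Nup160 (chr2:90652265-90652420) was the single site outside a repeat, shown with its CpG in capitals.
Gpr160: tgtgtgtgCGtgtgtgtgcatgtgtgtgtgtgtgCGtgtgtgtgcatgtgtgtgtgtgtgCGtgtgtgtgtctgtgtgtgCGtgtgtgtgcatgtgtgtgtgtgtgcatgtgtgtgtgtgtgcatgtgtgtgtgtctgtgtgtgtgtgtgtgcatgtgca
near Nup160: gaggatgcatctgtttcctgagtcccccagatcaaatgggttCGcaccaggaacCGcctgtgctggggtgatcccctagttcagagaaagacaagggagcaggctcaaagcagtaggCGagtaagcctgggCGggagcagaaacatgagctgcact

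The scores of the 18 peaks ran from 20 to 181 with a median of 46, and their widths from 135 to 389 bp with a median of 203 bp. The score was taken to be the −log10 of the peak caller's q-value multiplied by 10, and because it depends on the control and on the reads of each library, scores were compared between lists only by rank. The 18 peaks lay on 13 chromosomes. Chromosome 2 held 5 of them (27.8%, 95% Wilson interval 12.5% to 50.9%, counting error only), compared with 7.25% of the 897 491K/IgG peaks. This chromosome was picked after the positions were seen, because it held the most sites, so the interval does not measure an enrichment. All 18 lay wholly inside a 491K/IgG and a 491K/input peak, and 17 lay wholly inside a 100K/input peak. By a looser rule, 99.4% of all 897 491K/IgG peaks shared at least 1 bp with a 491K/input peak and 37.3% with a 100K/input peak. Of the 630 100K/input peaks, 97.1% did so with a 491K/input peak and 53.3% with a 491K/IgG peak. Lists of the same ZBTB43 library share its reads, so the overlap between its 2 controls is partly given by the design.

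The highest-scoring of the 18 peaks lay at Shq1, whose product is needed for the assembly of H/ACA ribonucleoproteins. It covered chr6:100571081-100571391, 311 bp with a score of 181. This was exon 11 of 11 of the coding transcript with the most exonic bases, in the 3′ untranslated part. The study places a region with a ChIP–seq peak downstream of Shq1. All 311 bp of the highest-scoring peak belonged to 1 alternating run, with 42 CpG (13.5 per 100 bp). The site ranked 18 among 897 in the 491K/IgG list (score 1173, 890 bp), 189 among 630 in the 100K/input list (score 259, 420 bp) and 106 among 2043 in the 491K/input list (score 1534, 902 bp).

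Of the other 7 CpG-rich PPRs, 3 lay in introns. Tshz2, a teashirt family zinc finger gene, held the peak of the second-highest score (80), with 29 CpG in 211 bp. It ranked 16 in the 491K/IgG list (score 1211) and 302 in the 100K/input list (score 153). The peak in intron 3 of Mxi1, which encodes a MAX-binding repressor (score 51, 139 bp), had 18 CpG and held 8 CG units in tandem, the most among the 18 peaks. Its 491K peak against IgG was 1071 bp wide, 7.71 times as wide, and ranked 17 (score 1184), whereas its 100K/input peak ranked 417 (score 103). In intron 15 of Cngb3, which encodes a subunit of the cone photoreceptor cation channel, all 186 bp of the peak (score 34) alternated, with 16 CpG and the longest uninterrupted CA or TG tract of the 18 peaks (20 units). The Cngb3 site ranked 109 in the 491K/IgG list (score 432) and 367 in the 100K/input list (score 116).

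The remaining 4 CpG-rich PPRs lay between genes. The peak 45744 bp from Chst1, a keratan sulfate sulfotransferase gene (chr2:92660874-92661114, score 69), had 20 CpG in 241 bp, and its ranks were among the best of the 18 in each of the other lists: 7 against IgG with 491K cells (score 2020), 118 against input with 100K cells (score 437) and 31 against input with 491K cells (score 3848). The peak 54256 bp from Slc27a6, a fatty acid transporter gene (chr18:58501822-58502180, score 42), was a single alternating run of 359 bp with 51 CpG, the longest run and the largest number of CpG in the 18 peaks. It ranked 30, 367 and 152 in the 491K/IgG, 100K/input and 491K/input lists. The peak 148270 bp from Irak1bp1 (chr9:82681181-82681359, score 22), a gene named for binding to the kinase IRAK1, ranked lower, at 225, 517 and 609 in the same order, and that 82761 bp from Otoa, which encodes otoancorin of the inner ear (chr7:121245791-121245925, score 20), ranked 73, 601 and 355. Both were almost fully alternating, with 21 CpG in 179 bp and 20 CpG in 135 bp.

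Of the 7 sites broken by GAG, 4 held no alternating run of 20 bp, at Hhat, at Pcdh7 and near Vapa and Tex21, and they are described in order of score. In intron 8 of Hhat, which encodes the acyltransferase that attaches palmitate to hedgehog proteins, the peak (score 59, 164 bp) held no CpG and no alternating run over 14 bp. It was the 1 site of the 18 without a 100K/input peak, the nearest on its chromosome being 2078364 bp away, although it ranked 19 in the 491K/IgG list (score 1161) and 125 in the 491K/input list (score 1417). The Itsn2 site (chr12:4694922-4695116, score 59) lay in intron 29 of this endocytic scaffold gene and 1277 bp upstream of the start of a shorter Itsn2 transcript, and ranked 34, 487 and 231 in the 491K/IgG, 100K/input and 491K/input lists.

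The peak nearest to Vapa, a gene for a membrane protein of the endoplasmic reticulum (chr17:65562122-65562418, score 59), was 16057 bp from that gene and 1494 bp upstream of a processed pseudogene, CT030729.2. It ranked 25, 326 and 102 in the same 3 lists. The peak 8993 bp from the testis-expressed gene Tex21 (chr12:76189551-76189835, score 57) carried the most interruptions, 27 matches to GTGAGTG, and ranked 4 against IgG with 491K cells (score 2401), the best rank of any of the 18 sites. The same site ranked 302 against input with 100K cells (score 153).

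In intron 1 of Pcdh7, a protocadherin gene, the peak (score 42, 149 bp) ranked 32, 302 and 171, and its 100K peak against input was 4.42 times as wide, the largest ratio in that list. In intron 21 of Spg11, which encodes spatacsin, a protein of lysosome turnover, the peak was the widest of the 18 (389 bp, score 34). It ranked 6 in the 491K/IgG list (score 2114) and 389 in the 100K/input list (score 105). The peak in intron 2 of Src, the tyrosine kinase gene (chr2:157445167-157445405, score 21), ranked 54, 302 and 136.

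Of the 3 sites of neither form, the Gpr160 peak lay in intron 2 of this orphan receptor gene (chr3:30884247-30884613, score 50). It was 94.3% alternating in 6 runs of at least 20 bp with 7 CpG in 367 bp, and it ranked 21, 366 and 112. The peak in intron 3 of Serpinb1b, a serine protease inhibitor gene (score 20, 164 bp), showed the widest gap between lists. It ranked 23 in the 491K/IgG list (score 1076), in a peak of 1425 bp that was 8.69 times as wide, but 622 of 630 in the 100K/input list (score 24). The site 24873 bp from Nup160, a nuclear pore gene (score 22, 156 bp), lay between genes and was not repetitive. In the reference, 0% of it was soft-masked as repeat, 40.6% of its neighbouring bases alternated, and its longest alternating run was 6 bp. It ranked 883 of 897 in the 491K/IgG list (score 16), 517 in the 100K/input list (score 60) and 1024 in the 491K/input list (score 192).

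**Figure D1:**
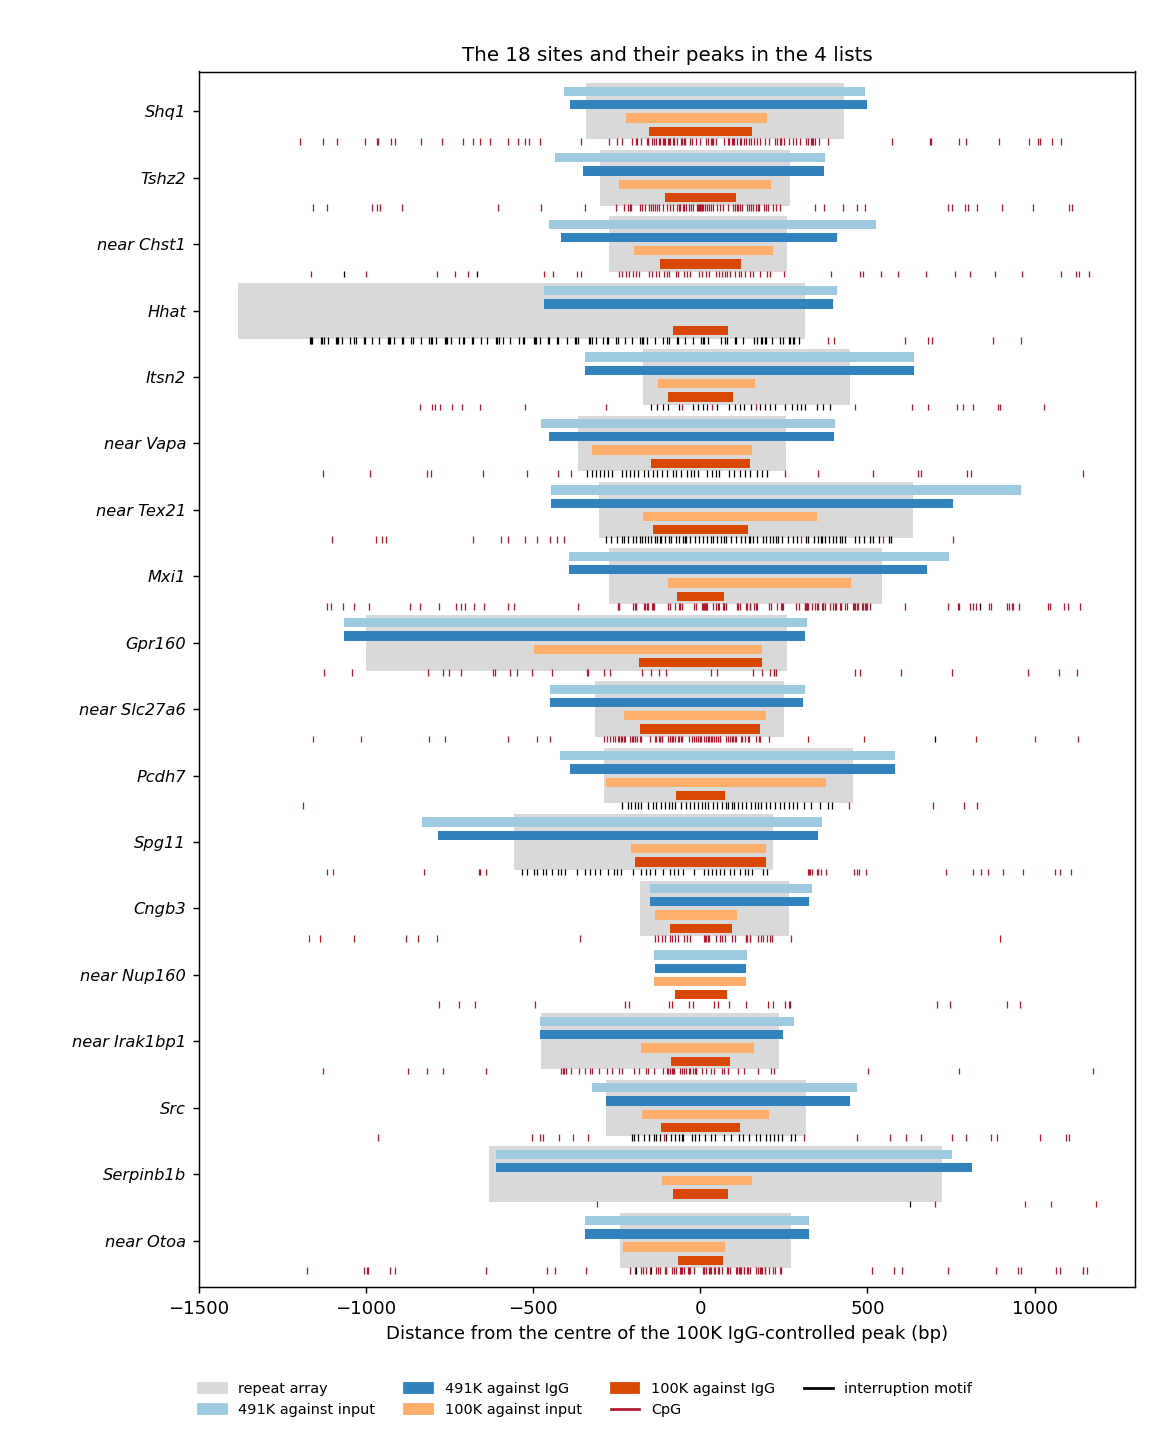
Each row is 1 of the 18 sites in order of score, and the horizontal axis is the distance in bp from the centre of the 100K IgG-controlled peak. Bars give the extent of the peaks in the 4 lists, grey blocks the repeat array, and ticks under each row the CpG (red) and GTGAGTG matches on either strand (black) within 1200 bp of the centre. The 100K/IgG peaks lie inside the 491K peaks, and grey arrays underlie 17 of the 18 sites. Inside the 100K peaks black ticks mark the 7 interrupted sites, which are defined by them. These 7 peaks hold 3 CpG, whereas all 18 rows have CpG within 1200 bp.

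Both 491K peaks were wider than the 100K peak against IgG at each of the 18 sites. Relative to the 100K/IgG peak, the 491K/IgG peak was between 1.74 and 8.69 times as wide (median 3.59), and the 100K/input peak, from the same ZBTB43 library, between 1.04 and 4.42 times (median 1.72, 17 sites). The centres of the 491K/IgG and 100K peaks were at most 377 bp apart, with a median of 83.5 bp. The 491K peaks were also set against the length of the repeat beneath them. A repeat array was defined, after the sequences were seen, as the union of all windows of 50 neighbouring pairs of bases of which at least 70% alternated. Arrays of 444 to 1695 bp were found at 17 sites, longer than the 100K peak at all 17 and with a median of 713 bp, or 0.78 of the width of the 491K/IgG peak (median of the ratios, range 0.628 to 1.96). No array was found at the site near Nup160.

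At 14 sites the 491K/IgG peak covered its array to both ends. The ends of the array lay a median of 95 bp inside the ends of that peak. The exceptions were Cngb3 and Serpinb1b, where the array ran 27 bp and 19 bp past the left end of the peak, and Hhat, where it ran 916 bp past it. A second 491K/IgG peak (797 bp, score 611, rank 71) covered 734 bp of the Hhat array. An array of at least 400 bp was present at 17 of the 18 sites (94.4%, interval 74.2% to 99.0%), compared with 53.8% of all 491K/IgG peaks and 33.0% of all 100K/input peaks. Among the 100 highest-scoring 491K/IgG peaks, 84 had such an array, 15 of them at the 18 sites, so long arrays were frequent among high-scoring peaks with or without one of the sites. No test was made of these differences.

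Other measures of repeat content lay above those of the larger lists in some cases and below them in others. An alternating run of at least 20 bp was present in 13 of the 18 peaks (72.2%), compared with 88.1% of 491K/IgG peaks and 81.7% of 100K/input peaks, and a CA or TG tract of at least 10 units in 9 (50%), compared with 74.4% and 79.5%. Read from the wider 491K/IgG peaks at the same 18 sites, the counts were 16 (88.9%) and 15 (83.3%), against 88.1% and 74.2% of the 879 other peaks of that list. The medians over the 18 peaks were 93.2% for neighbouring bases that alternate and 56 bp for the longest run, compared with 88.1% and 45 bp in the 491K/IgG list and 91.6% and 43 bp in the 100K/input list. The 5 peaks without such an alternating run were those at Hhat, at Pcdh7 and near Vapa, Tex21 and Nup160. In 17 of the 18 peaks at least 90% of the bases were soft-masked (94.4%), compared with 78.7% of 491K/IgG peaks and 97.6% of 100K/input peaks.

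The shares lay further apart for CpG. At least 5 CpG per 100 bp were present in 8 of the 18 peaks (44.4%, interval 24.6% to 66.3%), compared with 10% of 491K/IgG peaks (interval 8.23% to 12.2%) and 10% of 100K/input peaks. In windows of equal length, 200 bp at the peak centre, the shares were 44.4%, 11% and 10.8%. These 8 had 8.30 to 14.8 CpG per 100 bp and the other 10 had 0 to 2.56. The 8 CpG-rich peaks held 217 of the 231 CpG in the 18 peaks. In them, 208 of 209 gaps between neighbouring CpG were an even number of bp, as alternation requires, with 47 gaps of 2 bp and a median of 6 bp. Tandem CACG, at least 2 units of 4 bp in any phase, occurred in 7 of the 18 peaks, all of them CpG-rich, compared with 11.3% of 491K/IgG peaks and 10.8% of 100K/input peaks. With at least 3 units the count was 3 (16.7%, interval 5.84% to 39.2%), compared with 5.13% and 6.83%. The GC content of the 18 peaks ran from 46.2% to 64.4%, with a median of 54.1%, compared with 48.6% for 491K/IgG peaks.

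Seen from the 491K list, 8 of its 90 CpG-rich peaks (8.89%, interval 4.57% to 16.6%) overlapped 1 of the 18 sites, compared with 10 of its other 807 peaks (1.24%, interval 0.674% to 2.27%). The median scores of the CpG-rich and the other 491K peaks were 132 and 110. Among the 100 highest-scoring peaks of that list, 6 of 15 CpG-rich peaks (40%, interval 19.8% to 64.3%) and 9 of 85 others (10.6%, interval 5.67% to 18.9%) overlapped 1 of the 18 sites. Within these 100, the median scores of the CpG-rich and the other peaks were 848 and 762, so the 2 groups were not matched by score. Peaks of 1 library are not replicates, and the CpG minimum was chosen after the sequences were seen.

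**Figure D2:**
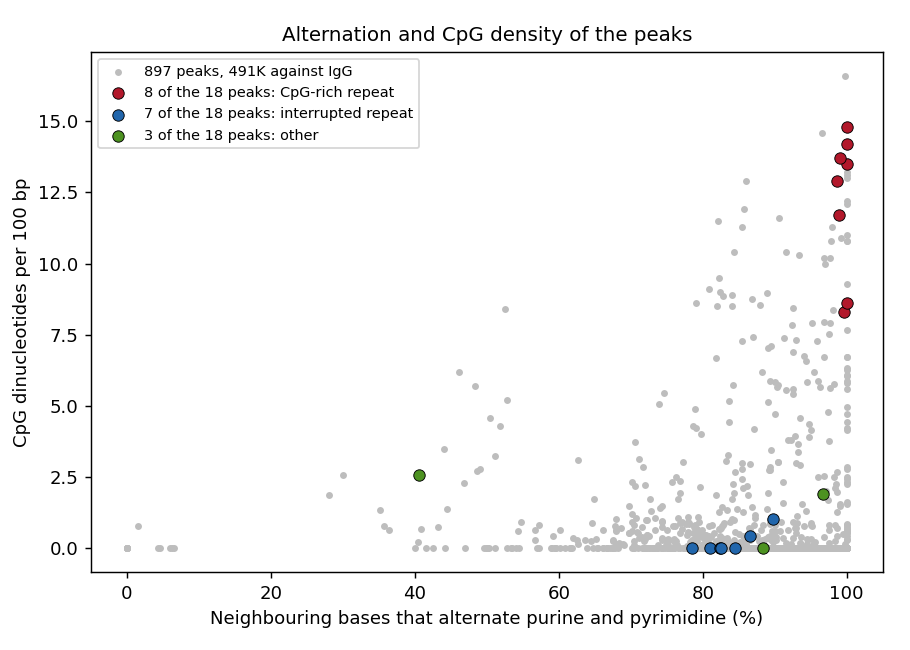
CpG per 100 bp of each peak (vertical axis) is plotted against the percentage of its neighbouring bases that alternate between purine and pyrimidine (horizontal axis), for the 18 peaks (coloured by sequence form) and the 897 491K/IgG peaks (grey). The 8 CpG-rich peaks sit between 98.6% and 100% alternation, the 7 interrupted repeats (GTGAGTG on either strand) between 78.5% and 89.7% near the bottom, and the site near Nup160 alone at 40.6%.

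The interruptions were also an even number of bp apart, which follows where a TG repeat stays in phase. The motif GTGAGTG, searched on both strands and counted with overlapping matches, was found 112 times in the 18 peaks. All matches lay at the 7 interrupted sites (38.9% of the 18) by definition, since holding the motif defined that form. The motif was found in 49.3% of 491K/IgG peaks and 33.0% of 100K/input peaks, so the share among the 18 peaks was between those of the larger lists. In 200-bp windows at the peak centre the shares were 38.9%, 47.8% and 33.2%. On the strand rich in TG, the 7 sites held 134 GAG, and each of the 127 gaps between neighbours was an even number of bp, with 33 gaps of 12 bp and a median of 12 bp. No CpG-rich peak of the 18 contained the motif. Read from the wider 491K/IgG peaks, 9 of the 18 sites held it, among them Serpinb1b and the CpG-rich site near Otoa. The 7 interrupted peaks held 3 CpG in 1718 bp, whereas the 8 CpG-rich peaks held 217 in 1761 bp.

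The scores of the 2 forms overlapped. The CpG-rich peaks scored between 20 and 181 with a median of 46.5, and the interrupted peaks between 21 and 59 with a median of 57. The widths also overlapped, at 135 to 359 bp and 149 to 389 bp. The arrays under the interrupted peaks were between 596 and 1695 bp long, with a median of 744 bp, and those under the CpG-rich peaks between 444 and 816 bp, with a median of 566 bp.

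By the centre of the peak, 9 of the 18 sites were intronic (50%, interval 29.0% to 71.0%), compared with 47.4% of 491K/IgG peaks. A further 6 were intergenic, compared with 42.1% of 491K/IgG peaks, and 1 was exonic, at Shq1, compared with 1.56%. The other 2 lay within 3000 bp upstream of a transcription start, at Itsn2 and near Vapa, compared with 8.92%, and none lay within 1000 bp either side of one. In all, 11 sites lay inside a protein-coding gene. On the transcribed sense strand of that gene, TG outnumbered CA at 8 of the 11 sites (72.7%, interval 43.4% to 90.3%) and CA outnumbered TG at the 3 others, Tshz2, Hhat and Serpinb1b. The share with TG in sense was 54.7% among 373 491K/IgG peaks with an array in 1 protein-coding gene, which is within the interval.

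The ranks of the 18 sites differed between the lists, which differ in control as well as in the number of cells. In the 491K/IgG list, 13 of the 18 sites were among the best 50 peaks by score, with a median rank of 24. Of the 30 highest-scoring peaks of that list, 11 overlapped 1 of the 18 sites. In the 491K/input list of 2043 peaks, 2 were among the best 50 and 4 among the best 100, with a median rank of 130. As a percentage of the list, the median rank was 2.68% in the 491K/IgG list, 6.39% in 491K/input and 58.3% in 100K/input. In the 100K/input list, made with the same ZBTB43 library as the 18 peaks, 0 of the 17 overlapping peaks were among the best 100 by score. Their median score was 116 and their median rank 367 of 630, and 11 of the 17 scored below the median peak of that list (153). Scores in that list were coarse, and 4 of the 17 sites (Tshz2, Pcdh7, Src and the site near Tex21) shared the score of 153 with each other.

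By width the order was different. The 17 100K/input peaks at these sites were 246 to 683 bp wide with a median of 414 bp, all wider than the list's median of 153 bp, and 13 of them were among the 100 widest. In the 491K/IgG list the 18 peaks had a median width of 858 bp, compared with 250 bp for the 879 without one of the 18 sites, and 16 of the 18 were among the 100 widest.

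**Figure D3:**
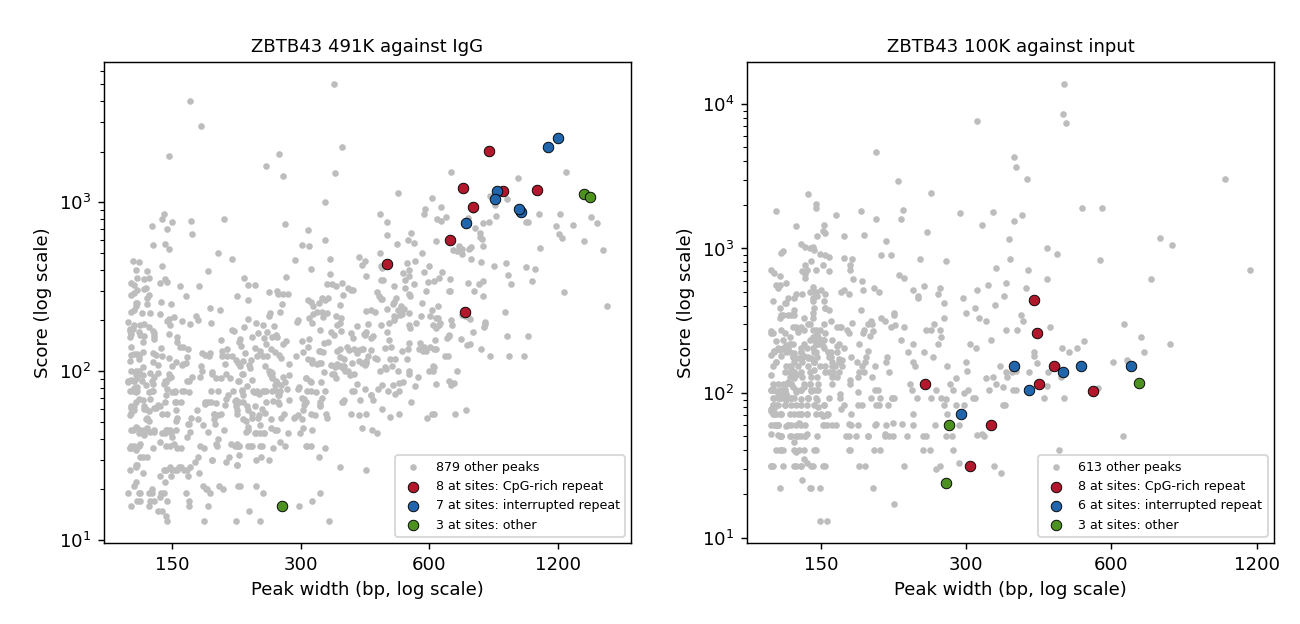
Score (vertical axis, log scale) against width in bp (horizontal axis, log scale) for the 491K/IgG list (left) and the 100K/input list (right). Coloured points are the peaks at the 18 sites and grey points all others. On the left the coloured points lie mostly at the upper right, and on the right they are wide with mid or low scores.

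**Figure D4:**
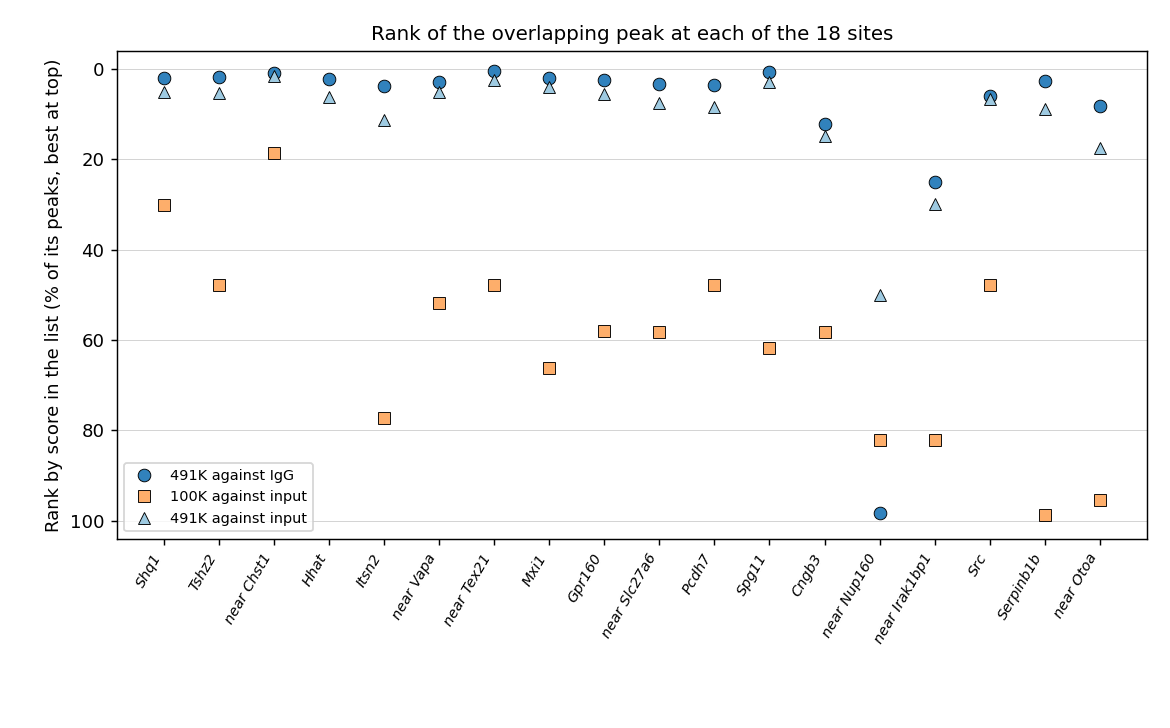
Rank by score of the overlapping peak, as a percentage of the peaks in its list with the best at the top (vertical axis), for each of the 18 sites in order of their own score (horizontal axis). Circles are the 491K list against IgG, triangles the 491K list against input and squares the 100K list against input. At 16 sites with a square the squares lie below both 491K symbols, and near Nup160 the circle is lowest.

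Conversely, 117 100K/input peaks scored above the best of the 17 (437, near Chst1). That choice leaves out all 18 sites, so the absence of these peaks from the 100K/IgG list is given by it. Of the 117, 82 coincided with a peak of the 491K/IgG list (70.1%, interval 61.3% to 77.6%), compared with 53.3% of all 630. Their median width was 181 bp, compared with 153 bp for all 630 and 414 bp for the 17. The 491K/IgG peaks of rank 2 and 3 by score belonged to this group. They lay in an intron of Mocos (score 3960) and 19193 bp from 1700010I14Rik (chr17:9031055-9031229, score 2817). They held TG or CA tracts of 48 and 56 units and 0 CpG, and their 100K/input peaks ranked 2 and 4 of 630. Both were named because they lay outside the 18. The longest such tract in the 18 peaks had 20 units. The IgG coverage at these sites was not analysed here, so what the 100K IgG control held there was not tested.

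Sites of high and of low score with 100K cells were then set side by side in the 491K/IgG list. The 9 highest-scoring of the 18 had 491K/IgG scores between 878 and 2401 with a median of 1173 and ranks between 4 and 34. The 9 lowest had scores between 16 and 2114 with a median of 757 and ranks between 6 and 883, so the ranges overlapped. Against input with 100K cells the medians were 146 and 105, over 8 and 9 sites.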

How the data were processed

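ChIP–seq of mouse prospermatogonia gave 6 libraries, 1 in each group, grouped by sample title. Per the study's methods and the submitters' processing notes, the authors trimmed reads with Trim Galore 0.6.0, aligned them to mm10 with BWA 0.7.17, marked duplicates with SAMBLASTER, kept properly paired alignments with a mapping quality of at least 30 using SAMtools, and called peaks with MACS2 2.2.7.1 at a q-value of 0.05 per ZBTB43 library with IgG or input as control, without pooling. Blacklisted regions were then removed. The mapping quality filter can remove fragments inside repeats, and duplicate removal can limit tall narrow peaks. Neither effect was tested here. The score in the deposited lists was taken as the −log10 of the q-value multiplied by 10 and truncated, since no peak of the larger lists scored under 13. The lists hold no read depths.

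Overlap was at least 1 bp. Sequence was read from GRCm38, and gene positions from GENCODE M21, with 1-based coordinates. Intron numbers refer to the coding transcript with the most exonic bases, and distances run from the peak centre. Alternating runs had at least 20 bp. All 18 peaks were named, with up to 3 of the highest-scoring 491K/IgG peaks without one of them, of which 1 is not reported here. The sites and lists were chosen with earlier results of these data known. CpG, GAG and array definitions were chosen after the sequences were seen. With 1 library a side no test was run. Wilson 95% intervals cover counting error only. Alternatives were other overlap, tract, window, promoter and array definitions. Python 3.11.15, NumPy 2.4.6, SciPy 1.17.1, pysam 0.24.0, Matplotlib 3.10.9, samtools 1.23.1 and bedtools 2.31.1 were used, and the code was tested on simulated data.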

Additional observations from a re-analysis of the deposited data

How the results depend on the processing

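Of 37 alternatives, 28 left a count within 1.5 times its value or a median as it was. A reciprocal overlap of 50% left 1 of the 18 sites matched in the 491K/IgG list and 1 in the 491K/input list, since the 491K peaks are wider. At a q-value of 0.01 the median 491K/IgG score was 1076, without the site near Nup160. CA or TG tracts were in 17 peaks at a minimum of 6 units and in 15 when the 491K/IgG peak was read, and CACG tracts in 3 at a minimum of 3 units. In a 200-bp window the median CpG density was 2.25 per 100 bp and the median GC content 53.5%. Promoters of 1000 bp either side of a start held 0 sites. The counts of CpG-rich peaks (8), interrupted peaks (7 to 9) and arrays of at least 400 bp (17) stayed within 1.5 times under alternatives chosen after seeing the data. No paired analysis was possible because no group had more than 1 library. The number of reads behind each peak is unknown here, which limits every comparison of peak numbers and scores between the libraries.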
